A study of Sus scrofa with 10 samples.

Results

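Ribosomal protein genes, which encode the protein part of the cytosolic ribosome, were compared between the SSEA1+ and SSEA1- fractions of porcine fetal fibroblasts. They were chosen by gene symbol: RPL or RPS followed by a number, the stalk proteins RPLP0, RPLP1 and RPLP2, and RPSA. The RPS6K kinases and 5 paralogs of the RPL22L1 type were left out. This gave 59 of the 6765 genes measured, with 91 of the array's 24123 probe sets, and each gene was read from its brightest probe set, by the mean of the 10 arrays. Of the 59, 34 encode large subunit proteins and 24 small subunit proteins, which is 58 of the 79 subunit proteins listed for this comparison. RPS19BP1, which the symbol rule also took, encodes a nucleolar partner of RPS19 and no part of the ribosome. Of the listed subunit proteins outside the symbol rule, FAU is given with the related genes, and the rest were not analysed here.

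The fibroblasts came from tissue of fetuses at day 24, the head removed, of a Danish Landrace/Yorkshire x Duroc cross, and both fractions shared this origin, the culture medium and the magnetic sort with an antibody against SSEA-1. SSEA-1 is the Lewis X carbohydrate, a cell surface marker of early embryonic and some stem cells. RNA of 5 SSEA1+ and 5 SSEA1- fractions, from 5 biological replicates, was hybridised to Affymetrix porcine arrays, which limits the precision to 5 arrays a fraction. The labels give no number of fetuses behind a replicate and no purity of the fractions, and a fraction is a mixture, so fewer cells of a type and less RNA per cell cannot be told apart.

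A ribosome is built from a small subunit, which reads the messenger RNA, and a large subunit, which joins the amino acids. Each holds ribosomal RNA and one copy of most of its proteins, so the proteins are made in matched amounts. Their messenger RNAs are among the most abundant of growing cells and begin with a 5' terminal oligopyrimidine (5' TOP) tract, through which the kinase complex mTORC1 controls their translation, a layer that RNA levels do not measure. New subunits are assembled in the nucleolus by a large set of assembly factors.

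No ribosomal protein gene passed the test between the fractions. Each difference below is the mean log2 signal of SSEA1+ minus that of SSEA1-. A gene was called at an adjusted p under 0.05 in limma, a linear model fitted to all probe sets. Unless the replicate block is named, this model held the fraction alone and did not use the pairing of arrays. In limma, 0 of the 59 genes were called, the smallest adjusted p was 0.157, and 2 genes, RPS4X and RPS15A, had an unadjusted p under 0.05. Over all genes 7.39% were called. With the replicate number as a block, 0 of the 59 were called against 14.3% of all genes, and with the trend and robust settings of limma 1 was, RPS4X.

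The differences of the 59 genes were small and bounded. They ran from -0.17 for RPS15A to 0.20 for RPL37, with a median of -0.04 beside -0.01 over all genes. The median size of a difference was 0.05, against 0.11 over all genes, and the median SE was 0.0628. For 52 of the 59 genes the whole 95% interval lay within a 1.2-fold change in either direction. The widest interval, that of RPL37, reached 1.37-fold upward. Of the genes, 41 were lower in sign in SSEA1+ and 18 higher; over all genes 52.4% were lower in sign. The fractions did not overlap for 3 of the 59, namely RPS4X and RPL29, higher in sign, and RPS15A, lower in sign, beside 8.53% of all genes.

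**Figure D1:**
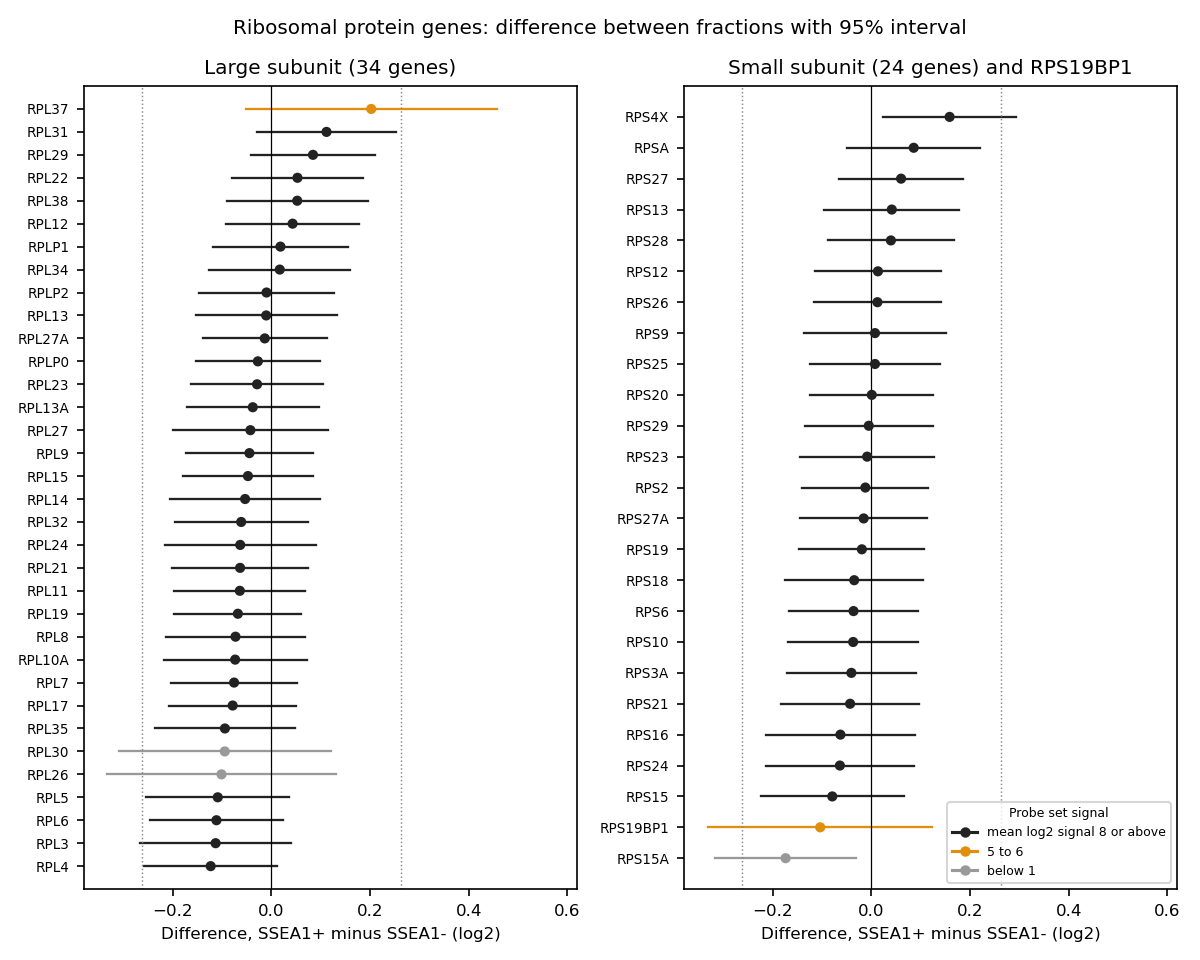
Difference between fractions for each of the 59 genes (SSEA1+ minus SSEA1-, log2; points are the estimates, lines the 95% intervals from limma, dotted lines a 1.2-fold change either way), large subunit at left, small subunit and RPS19BP1 at right, coloured by mean log2 signal. Nearly all intervals cross 0 and stay within the dotted lines; RPS4X and RPS15A have intervals that leave 0 out, without passing the adjusted threshold, and RPL37 has the widest.

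The genes fell into 3 classes by signal. For 54 of them the mean log2 signal over the 10 arrays was between 8.31 and 11.26, while the highest signal of any probe set on an array reached 11.72 at most. RPL37 at 5.79 and RPS19BP1 at 5.28 lay in the middle of the scale. RPL26 at 0.66, RPL30 at 0.14 and RPS15A at 0.10 read near the background of 0.35, a level that 95% of the readings from 23 control probe sets without a target in pig RNA stay under, and 57 of the 59 lay above it. Differences in signal between genes reflect the probes as well as the RNA, so the genes are not ranked by amount here.

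How the signal followed concentration was read from the hybridisation controls, which reach up to the level of cre. From the hybridisation control bioD, at log2 signals of 8.03 to 8.87, to cre, at 10.01 to 10.48, the signal rose by 0.806 to 0.991 per log2 unit of the supplier's concentration. From bioC to bioD it rose by 1.15 to 1.24. Of the 54 bright genes 10 had a mean above the highest cre signal, RPS18 at 11.26 among them, and no control of known concentration covers their levels. The other 95 genes with a mean log2 signal of at least 9 had a median difference of -0.05 and a median size of 0.09, and 67.4% of them were lower in sign. Of these 95 genes 2 were called, which is 2.11%.

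**Figure D2:**
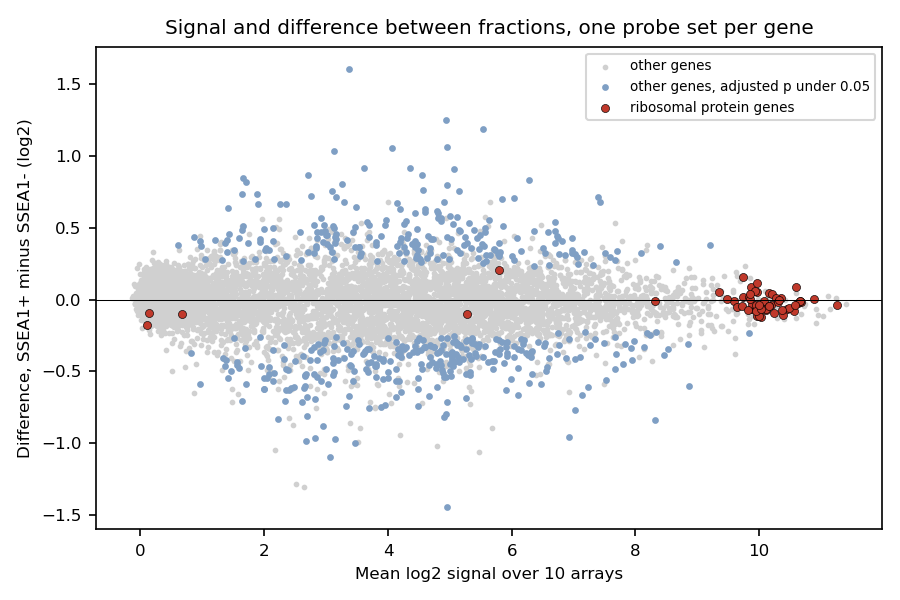
Mean log2 signal over the 10 arrays (horizontal) against the difference between fractions (vertical, log2, SSEA1+ minus SSEA1-) for all 6765 genes, 1 probe set per gene; red points are the 59 ribosomal protein genes, blue points other genes with an adjusted p under 0.05 in limma. The red points cluster at the right, at signals of 8.31 to 11.26, within a narrow band around 0, with 5 red points at lower signals.

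Averaged over the 54 bright genes, the arrays of both fractions gave nearly one value. The mean log2 signal in SSEA1+ replicates 1 to 5 was 10.12, 10.06, 10.08, 10.09 and 10.09. In SSEA1- replicates 1 to 5 it was 10.10, 10.07, 10.04, 10.16 and 10.16. The fraction means were 10.09 ± 0.02 and 10.11 ± 0.06 (SD, n = 5), a difference of -0.02 that is smaller than the SD of the SSEA1- arrays. The values overlapped, with SSEA1- replicates 4 and 5 the highest of the 10 arrays. The 31 bright large subunit genes averaged 9.96 ± 0.02 against 10.00 ± 0.06, and the 23 bright small subunit genes 10.25 ± 0.02 against 10.26 ± 0.05 (SD, n = 5). All 54 lay at percentile 98.46 or higher of the probe sets. RMA gives the single probes of each array one distribution before they are summarised into probe sets. The probe set values of the arrays are then alike but not identical, with array medians from 1.15 to 1.19. Such processing can bring means of bright genes closer between arrays, and its part in this closeness was not tested.

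The control probe sets for pig 28S ribosomal RNA, the large subunit's main RNA, did differ. The first read 8.64, 8.79, 9.77, 9.49 and 9.09 in SSEA1+ replicates 1 to 5 and 6.84, 7.45, 7.60, 7.72 and 7.34 in SSEA1- replicates 1 to 5, on the log2 scale. Every SSEA1+ array lay above every SSEA1- array. It rose by 1.77 ± 0.210 (SE) and the second 28S probe set by 1.46 ± 0.189 (SE), with adjusted p = 0.000591 and 0.00105 in limma, and both calls held without any single array or pair of arrays. An 18S probe set, for the small subunit's RNA, rose by 1.00 ± 0.252 (SE; adjusted p = 0.0342 in limma) with overlapping fractions. This 18S call held in 5 of 15 fits that left out an array or a pair (without SSEA1+ replicate 1, SSEA1- replicate 2, 3 or 4, or both arrays of replicate 4), the highest adjusted p being 0.138, and it ended with limma's trend and robust settings, at 0.104. With the replicate block the 18S call held (adjusted p = 0.000321 in limma). The other 18S probe set differed by 0.04 (adjusted p = 0.889 in limma). The 5S probe set, at a mean of 0.34 near background, differed by -0.33 (adjusted p = 0.246 in limma) with overlapping fractions. Whether these control readings follow the amount of ribosomal RNA in the cells was not tested.

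The poly-A spike-ins, bacterial transcripts added to the RNA before labelling, moved with the fractions too. Their level relative to the hybridisation controls was -3.20 ± 0.32 in SSEA1+ and -4.02 ± 0.25 in SSEA1- on the log2 scale (SD, n = 5), a difference of 0.82 without overlap (exact two-sided permutation p = 0.00794, the smallest that 252 assignments of 5 against 5 arrays can give; 0.0198 adjusted over 5 control measures). With that level as a covariate the 28S differences were 1.39 ± 0.389 and 1.27 ± 0.363 (SE) and were no longer called in limma, at adjusted p = 0.184 and 0.191. The 18S difference was then 0.38 ± 0.443 (SE) and not called (adjusted p = 0.812 in limma). With the spike-in level and the replicate block, the median over the 59 genes was -0.13 and 51 of 59 were lower in sign, while 0 were called. No SSEA1+ array had a spike-in level as low as any SSEA1- array, so these fits extrapolate. The errors of the 28S and 18S differences were wider than in the main fit. The share of all genes called with the spike-in covariate is not given here, so no count from these fits has it beside it. The part of the spike-in level in these results was not tested further.

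**Figure D3:**
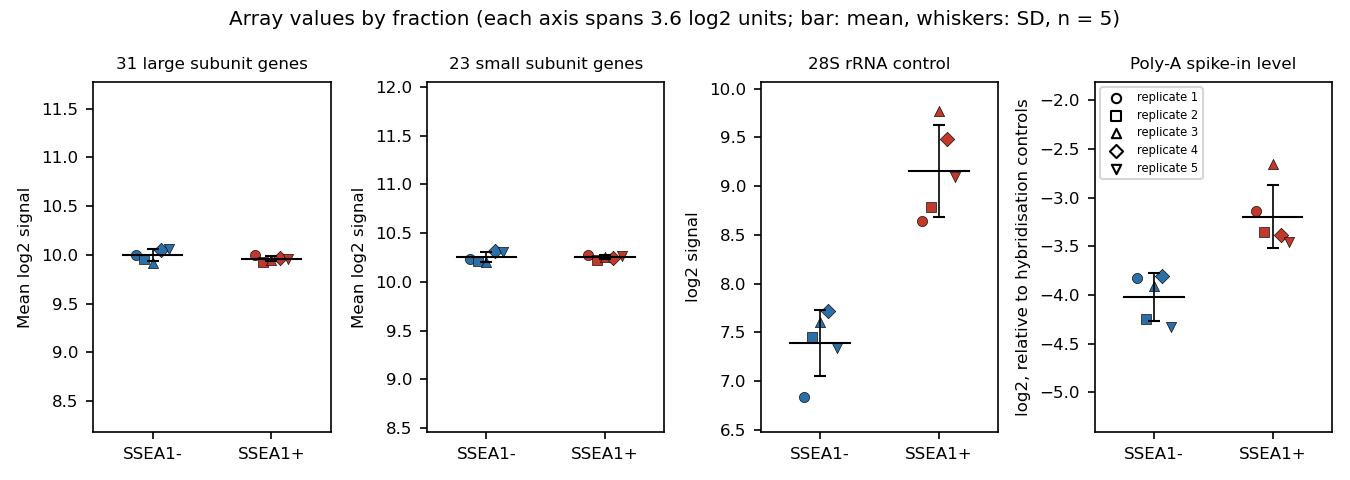
Values on each array by fraction (blue SSEA1-, red SSEA1+; marker shape is the replicate number, bars are means and whiskers SD, n = 5), from left: mean log2 signal of the 31 bright large subunit genes, of the 23 bright small subunit genes, log2 signal of a 28S ribosomal RNA control probe set, and poly-A spike-in signal minus hybridisation control signal (log2). Each vertical axis spans 3.6 log2 units; the protein gene means overlap between fractions, and the 28S and spike-in values do not.

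Small subunit genes were lower in sign in 14 of 24 cases, with a median difference of -0.01. RPS4X, the X-linked gene of a small subunit protein, had the largest positive difference among the bright genes. It read 9.81, 9.77, 9.82, 9.85 and 9.87 in SSEA1+ replicates 1 to 5 and 9.70, 9.63, 9.56, 9.68 and 9.75 in SSEA1- replicates 1 to 5. All SSEA1+ values lay above all SSEA1- values, and it was higher in 5 of 5 pairs. The difference was 0.16 (95% interval 0.02 to 0.29) with an adjusted p of 0.169 in limma, or 0.048 with the trend and robust settings, where it alone of the 59 genes was called.

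RPSA, a small subunit protein also known as the laminin receptor precursor, read 10.66, 10.59, 10.64, 10.69 and 10.64 in SSEA1+ and 10.51, 10.52, 10.49, 10.64 and 10.64 in SSEA1-. The upper SSEA1- values fell among those of SSEA1+, and the difference of 0.09 (95% interval -0.05 to 0.22) did not pass (adjusted p = 0.509 in limma). RPS6, the small subunit protein phosphorylated by the S6 kinases downstream of mTORC1, ran from 9.94 to 10.00 in SSEA1+ with a median of 9.97, and from 9.93 to 10.08 in SSEA1- with a median of 9.98. The SSEA1+ values lay inside the range of the SSEA1- values, with a difference of -0.04 (95% interval -0.17 to 0.10).

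RPS19, the protein most often mutated in Diamond-Blackfan anaemia, differed by -0.02 (95% interval -0.15 to 0.11). RPS20, a protein of the head of the small subunit, differed by 0.00 (95% interval -0.12 to 0.13), and RPS18, another head protein, by -0.03 (95% interval -0.17 to 0.10). RPS26, which lies near the messenger RNA exit channel, differed by 0.01 (95% interval -0.12 to 0.14). In each of these 4 genes the fractions overlapped. The remaining bright small subunit genes, without RPS27A, lay between RPS15 at -0.08 and RPS27 at 0.06.

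Large subunit genes were lower in sign in 26 of 34 cases, with a median difference of -0.05. Among the bright ones 24 of 31 were lower in sign, and 11 of these were lower in 5 of 5 pairs, against 1 of the 23 bright small subunit genes. None passed alone, and the difference between the subunits was not tested. Other bright genes of the array were lower in sign at 67.4%, as given above.

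The stalk proteins RPLP0, RPLP1 and RPLP2, which recruit the elongation factors to the large subunit, differed by -0.03, 0.02 and -0.01, with 95% intervals between -0.15 and 0.16. RPL5 and RPL11 join 5S ribosomal RNA in a particle that also binds MDM2, the ubiquitin ligase of p53. RPL5 read 10.38, 10.30, 10.21, 10.38 and 10.35 in SSEA1+ and 10.43, 10.38, 10.34, 10.47 and 10.55 in SSEA1-. It was lower in each of the 5 pairs while the fractions overlapped, with a difference of -0.11 (95% interval -0.25 to 0.04; adjusted p = 0.420 in limma). RPL11 differed by -0.06 (95% interval -0.20 to 0.07) and was lower in 4 of 5 pairs.

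RPL3, next to the site where peptide bonds form, RPL4, which lines the tunnel for the growing chain, and RPL6 had the largest negative differences among the bright genes, with RPL5. RPL4 read 9.94, 9.91, 9.96, 10.07 and 9.99 in SSEA1+ and 10.12, 10.06, 10.02, 10.12 and 10.16 in SSEA1-. Only SSEA1+ replicate 4 reached into the SSEA1- range, and the difference was -0.12 (95% interval -0.26 to 0.01; adjusted p = 0.305 in limma). RPL3 differed by -0.11 (95% interval -0.27 to 0.04) and RPL6 by -0.11 (95% interval -0.25 to 0.02), and both were lower in 5 of 5 pairs without passing.

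A few large subunit genes lay on the other side of 0. RPL29, a heparin-binding protein of the large subunit, read 9.99, 9.87, 9.90, 9.92 and 9.89 in SSEA1+ and 9.84, 9.84, 9.80, 9.83 and 9.84 in SSEA1-. All SSEA1+ values were above all SSEA1- values, by a difference of 0.08 (95% interval -0.04 to 0.21; adjusted p = 0.482 in limma), which in limma's pooled spread did not pass. RPL31, at the exit of the tunnel, differed by 0.11 (95% interval -0.03 to 0.25) with overlapping fractions. RPL22, an RNA-binding protein with the paralog RPL22L1, differed by 0.05 (95% interval -0.08 to 0.19).

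RPL37 had the largest difference of the 59 genes and the largest spread. It read 5.88, 5.96, 5.81, 5.88 and 5.94 in SSEA1+ and 5.85, 5.82, 5.70, 5.18 and 5.89 in SSEA1-. SSEA1- replicate 4 was far below the other 9 arrays. The difference was 0.20 (95% interval -0.05 to 0.46; adjusted p = 0.385 in limma), and without that array it was 0.08 (adjusted p = 0.628 in limma).

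**Figure D4:**
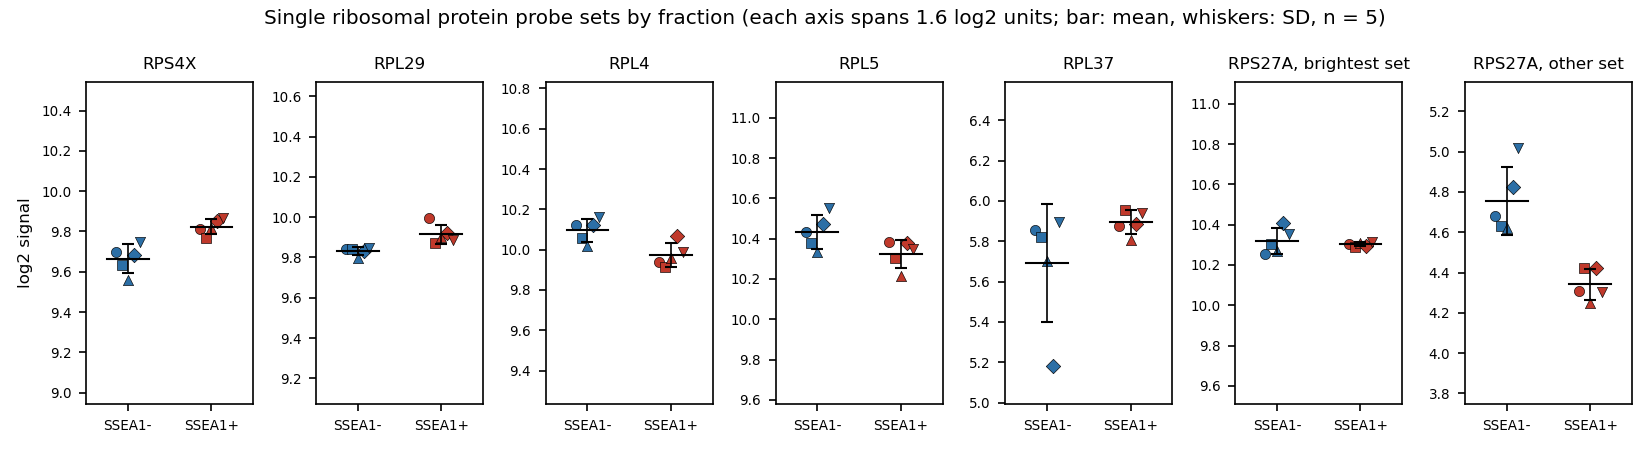
Log2 signal of single probe sets on each array (blue SSEA1-, red SSEA1+; marker shapes are the replicate numbers, bars are means and whiskers SD, n = 5; each vertical axis spans 1.6 log2 units). The fractions do not overlap for RPS4X, RPL29 and the other probe set of RPS27A, overlap for RPL4, RPL5 and the brightest probe set of RPS27A, and the low point of RPL37 is SSEA1- replicate 4 at 5.18.

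For RPS15A, RPL30 and RPL26 the probe sets read near background, and little can be said of the genes from them. RPS15A read 0.02, 0.00, 0.08, 0.00 and -0.02 in SSEA1+ and 0.11, 0.18, 0.34, 0.23 and 0.10 in SSEA1-. All values lay at or under the background of 0.35, and although the fractions did not overlap, the difference of -0.17 (95% interval -0.32 to -0.03; adjusted p = 0.157 in limma) is one between readings without clear signal. RPL30 at -0.09 and RPL26 at -0.10 had intervals that cross 0.

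Of the 59 genes, 24 had more than one probe set, and in 1 of them a probe set other than the brightest was called. RPS27A encodes a fusion of ubiquitin with a small subunit protein. Its brightest probe set, at a mean of 10.31, differed by -0.02 (95% interval -0.14 to 0.11; adjusted p = 0.931 in limma). Its other probe set read 4.31, 4.42, 4.25, 4.42 and 4.30 in SSEA1+ and 4.68, 4.63, 4.62, 4.83 and 5.02 in SSEA1-. That signal fell by 0.41 (95% interval -0.60 to -0.23; adjusted p = 0.0135 in limma) without overlap, the only call among the 91 probe sets, beside 6.20% of all probe sets.

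This call ended without both arrays of replicate 1 (adjusted p = 0.063 in limma), replicate 3 (0.0521) or replicate 5 (0.0736). It also ended with the spike-in level as a covariate, where the difference was -0.25 ± 0.157 (SE; adjusted p = 0.577 in limma). The probe sets of RPS27A thus disagree on the gene, and which of its transcripts each one reads is not given in the sources used here. Ribosomal protein genes have many near-identical processed copies in mammalian genomes, so a probe set can take up RNA from more than one of them.

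The dimmer probe sets of these genes had larger differences in median size than the brightest ones, at 0.12 against 0.05, with no test of that contrast. Of the 32 that were not the brightest of their gene, 14 were higher in sign and 18 lower, the differences ran from -0.41 to 0.45, and 9 had a 95% interval within a 1.2-fold change. The 4 of them above a log2 signal of 8 differed by a median of -0.01. The 11 between 3 and 8 had a median of 0.12 and a median size of 0.26, with 8 higher in sign. Of these 11, 5 had an unadjusted p under 0.05, beside 23.8% of all genes by their brightest probe set. The largest was a second probe set of RPL23, at 0.45 (adjusted p = 0.0746 in limma, or 0.0305 with the replicate block), while the brightest of RPL23 differed by -0.03 and its remaining one by -0.23. This probe set was singled out after its value was seen.

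Genes around the ribosome were read from lists of related function. RACK1, a scaffold protein on the small subunit, differed by 0.05, and FAU, whose product is a ubiquitin-like protein fused to a small subunit protein, by 0.06; neither was called. Among the 5 measured paralogs that the symbol rule left out, RPL7L1 fell by 0.31 ± 0.083 (SE; adjusted p = 0.0467 in limma), 1 of 5 beside 4.18% of all genes called lower. That call held in 3 of 15 fits without an array or a pair, those without SSEA1+ replicate 4, SSEA1- replicate 2 or both arrays of replicate 2, and reached 0.197 in the others. The replicate block gave it an adjusted p of 0.0166 in limma. With the spike-in level as a covariate the difference was -0.33 ± 0.162 (SE) and not called (adjusted p = 0.445 in limma). RPS27L at 0.15, RPL22L1 at 0.12, RPL36AL at 0.00 and RPL26L1 at -0.12 were not called.

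Other genes with 5' TOP messages gave 0 calls in limma among 24 measured of 31 listed. Most encode elongation factors, initiation factors and other proteins of translation, while VIM, an intermediate filament protein, and CCNI, a cyclin family member, do not. Of the 24 genes 5 had an unadjusted p under 0.05, beside 23.8% of all genes. In sign 9 were higher and 15 lower, and the median was -0.01. EEF1A1, the elongation factor that delivers transfer RNA, differed by -0.11, and its brightest probe set is one of the array's controls. With the replicate block 1 gene of this list was called, CCNI, at 0.27.

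Ribosome assembly factors were mostly lower in SSEA1+. Of 86 measured genes of 121 listed, 74 were lower in sign and 12 fell in limma, which is 14.0% of the list beside 4.18% of all genes called lower, and 0 rose. The median difference was -0.17, against -0.04 for the ribosomal proteins. In 38 genes no pair was higher in SSEA1+, a count given without its share over all genes. With the replicate block 23 fell, beside 8.62% of all genes. This list was chosen with earlier results of these arrays known, so its direction is a description.

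The assembly factors with the smallest p act at different steps. NOC2L, a large subunit assembly factor, read 1.35 ± 0.18 in SSEA1+ and 1.83 ± 0.12 in SSEA1- and fell by 0.48 (adjusted p = 0.0105 in limma). MPHOSPH10, a component of the U3 small nucleolar ribonucleoprotein, read 3.16 ± 0.14 against 3.61 ± 0.16 and fell by 0.46 (adjusted p = 0.0124 in limma). LSG1, a GTPase of the last cytoplasmic steps of the large subunit, read 2.64 ± 0.09 against 3.06 ± 0.17 and fell by 0.42 (adjusted p = 0.014 in limma). NGDN, of the small subunit processome, read 4.63 ± 0.09 against 5.12 ± 0.23 and fell by 0.49 (SD, n = 5 throughout; adjusted p = 0.0143 in limma). In all 4 the fractions did not overlap, and the calls held without any single array. Leaving out both arrays of replicate 1 or 5 ended the call of NOC2L, those of replicate 1 or 3 that of MPHOSPH10, and those of replicate 1, 3 or 5 those of LSG1 and NGDN, at adjusted p-values up to 0.0914. TSR2, the chaperone of RPS26, was singled out after its value was seen and fell by 0.44 (adjusted p = 0.0183 in limma), a call that ended without SSEA1- replicate 3 or 5 and without the pairs 1, 3, 4 and 5, at up to 0.102, while RPS26 itself differed by 0.01.

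These assembly calls depended on the arrays used. The number that fell was 0, 10, 1, 12 and 1 without both arrays of replicates 1 to 5. It was 5, 8, 9, 16 and 6 without SSEA1+ replicates 1 to 5, and 6, 20, 4, 7 and 5 without SSEA1- replicates 1 to 5. In all 15 of these fits 67 to 76 of the 86 stayed lower in sign. With the spike-in level as a covariate 0 were called in limma and 17 were lower at an unadjusted p under 0.05, with 69 lower in sign and a median of -0.15. With the replicate block beside it, 0 were called and 51 were lower in sign, with a median of -0.07. The share of all genes in these covariate fits is not given here, so the loss of calls cannot be read as particular to this list.

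The RNA polymerases that make ribosomal RNA gave calls in both directions, in 3 of 18 measured genes of 40 listed, which is 16.7% beside 7.39% of all genes. POLR1E, a subunit of RNA polymerase I, rose by 0.92 ± 0.131 (SE; adjusted p = 0.0019 in limma) and kept its call without any array or pair. TWISTNB, another RNA polymerase I subunit, fell by 0.37 ± 0.0765 (SE; adjusted p = 0.0136 in limma), a call lost without both arrays of replicate 3 or 5, at up to 0.0773. TTF1, the termination factor of RNA polymerase I, fell by 0.43 ± 0.116 (SE; adjusted p = 0.0438 in limma), and its call held in 3 of 15 leave-outs, those without SSEA1+ replicate 4, SSEA1- replicate 1 or both arrays of replicate 4; it reached 0.184 in the others and ended after repeated quantile normalization. TTF1 was also called with the replicate block (adjusted p = 0.0186 in limma). Of the 18 genes 12 were lower in sign. With the spike-in level as a covariate none of the 3 was called, at wider errors: POLR1E differed by 1.17 ± 0.242, TWISTNB by -0.56 ± 0.136 and TTF1 by -0.22 ± 0.214 (SE).

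Regulators of ribosomal protein production through mTORC1 and MYC gave 3 rises and 0 falls among 11 measured of 22 listed, which is 27.3% beside 3.21% of all genes called higher. AKT1S1, an inhibitory subunit of mTORC1, rose by 0.80 ± 0.0913 (SE; adjusted p = 0.000446 in limma). EIF4EBP2, which represses cap-dependent translation, rose by 0.34 ± 0.0743 (SE; adjusted p = 0.0175 in limma), a call lost without both arrays of replicate 1, 4 or 5, at up to 0.0881. MXD4, which competes with MYC for its partner MAX, rose by 0.38 ± 0.0892 (SE; adjusted p = 0.0252 in limma), with its call kept in 7 of 15 leave-outs, those without SSEA1+ replicate 2, 3 or 4, SSEA1- replicate 2 or 4, or both arrays of replicate 2 or 4. MXD4 was also called with the replicate block (adjusted p = 0.0153 in limma). MYC itself differed by 0.05 ± 0.146 (SE). Of the p53 list 2 of 6 genes were measured, CDKN1A and BAX, both p53 targets. They rose by 0.68 and 1.05 (adjusted p = 0.00511 and 0.000446 in limma), 2 of 2 beside 3.21% of all genes called higher. This list too was chosen with earlier results of these arrays known. With the spike-in level as a covariate, BAX was the only one still called of the 5 genes that rose here (1.44 ± 0.194, SE; adjusted p = 0.0307 in limma), and with the replicate block beside it that call ended too (adjusted p = 0.153 in limma). The other 4 differed by 0.53 ± 0.154 for AKT1S1, 0.33 ± 0.173 for MXD4, 0.27 ± 0.143 for EIF4EBP2 and 0.81 ± 0.220 for CDKN1A with the covariate (SE).

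**Figure D5:**
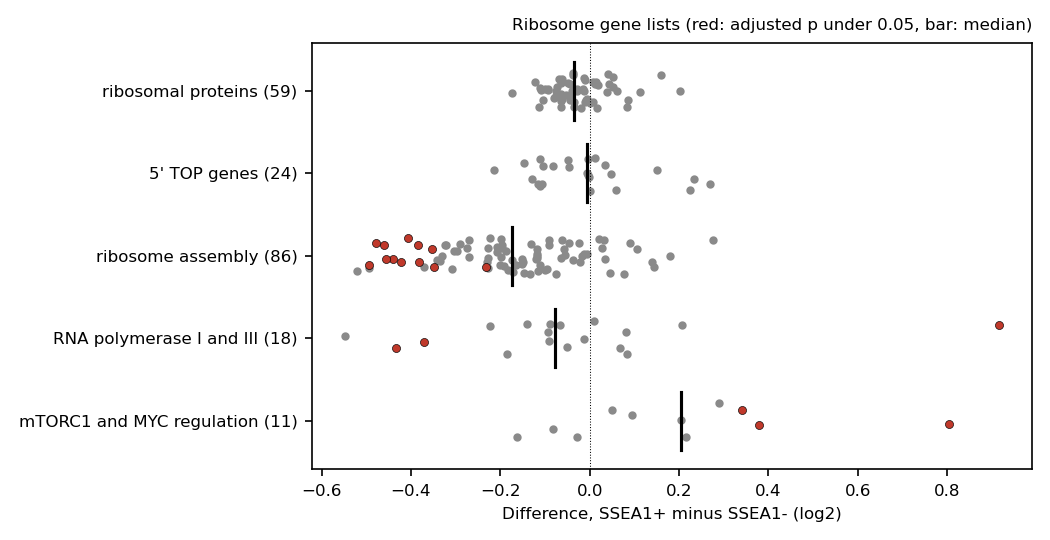
Difference between fractions (log2, SSEA1+ minus SSEA1-) of each measured gene in 5 lists, 1 point per gene, with the number of measured genes in brackets; red points have an adjusted p under 0.05 in limma and bars are list medians. The ribosomal proteins hold no red point and the narrowest range, the assembly factors lie mostly below 0 with 12 red points, and RNA polymerase and mTORC1 genes include single large rises.

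The cells' identity was checked on marker genes. All 8 measured of 10 fibroblast markers were above background, with VIM at a mean log2 signal of 11.25 and COL1A2, a collagen I chain, higher in SSEA1+ by 1.19 (called in limma). The lowest of the 8 had a mean of 0.72, 3 were lower in sign and the list median was 0.04. On each array 69.3% to 72.5% of all probe sets were above background, so passing it says little alone. Several markers of other types were above background as well, with means of 7.06 for DES and 5.78 for ACTC1 of muscle, 5.45 for KRT8 of epithelium, 4.46 for HBB of blood cells and 4.22 for NCAM1 of neural cells. PTPRC and SPI1 of blood cells, CDH5, TEK, KDR and TIE1 of endothelium, EPCAM of epithelium and TNNT2 of muscle were not. None of the 26 measured markers of endothelium, blood, epithelium, muscle and nerve passed in limma. Of these, 5 had unadjusted p-values under 0.05, beside 23.8% of all genes. Of the 5, 4 were epithelial and higher in sign in SSEA1+: KRT19 by 0.40, EPCAM, not above background, by 0.25, CLDN4 by 0.24 and CDH1 by 0.18. The other 2 of the 6 epithelial markers, KRT8 and KRT18, were lower in sign, at -0.05 and -0.09. With the replicate block KRT19, a keratin, was called (adjusted p = 0.0272 in limma). Above background were 2 of 6 endothelial, 3 of 5 blood, 5 of 6 epithelial, 4 of 5 muscle and 4 of 4 neural markers. The linear signals, summed over a list, ran from 7.23 to 8.07 in SSEA1+ against 7.50 to 7.82 in SSEA1- for endothelium and from 24.3 to 29.3 against 25.8 to 30.1 for blood. They ran from 35.7 to 92.4 against 35.5 to 105.3 for epithelium, from 157.3 to 264.3 against 103.2 to 227.9 for muscle and from 30.4 to 34.3 against 26.0 to 32.8 for nerve. The ranges overlapped between the fractions in each list, and their part in the results was not tested. Of the ratios of 3' to 5' control probe sets, which track RNA quality, that of EEF1A1 was 0.32 ± 0.09 against 0.22 ± 0.01 (SD, n = 5; exact two-sided permutation p = 0.00794, adjusted 0.0198). Those of actin and GAPDH differed by -0.06 and -0.07 (exact p = 0.302 and 0.151).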

How the data were processed

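The authors deposited one log2 signal for each probe set and array, computed by RMA according to the submitters' processing notes. Its version is not given in the sources used here. All 10 columns were matched to samples by title. Of 24123 probe sets, 10099 had 1 gene symbol in the platform's annotation and 198 had several and were not named. RMA gives the single probes of each array one distribution before summarising them, so all differences are relative to the other probe sets. No further normalization was applied.

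Fractions were compared with limma 3.58.1 in R 4.3.3 (lmFit, then eBayes) over every probe set and the 188 control probe sets among them, with Benjamini-Hochberg adjustment and a threshold of 0.05. The 5 control measures were compared by exact two-sided permutation.

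The main limma fit was unpaired. Arrays with one replicate number were taken as a pair in the pair counts, the replicate block and the fits without a pair. The design text describes both fractions as products of one replicate. Once the fraction mean was subtracted, the arrays of a pair correlated at 0.214 (replicate 1), 0.580 (2), 0.356 (3), 0.119 (4) and 0.247 (5). Replicate 4 is the weakest pair, and one of its arrays correlated at up to 0.314 with an array of another number. Nothing else says that replicates came from separate animals, so p-values measure the spread between these samples.

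The genes and the lists were chosen with earlier results of these data known. Named by rule were genes with a call, the 3 with the highest and the 3 with the lowest mean, RPS6, RPSA, RPLP0, RPL5, RPL11, RPS19, RPL22 and RPS27A, and up to 4 called genes per related list. RPS4X, RPS26, RPL3, RPL4, RPL6, RPL29, RPL31, RPL37, RPL23 and TSR2 were named after their values were seen. The alternatives were the replicate block (fixed or random), limma's trend and robust settings, median centring, repeated quantile normalization, cyclic loess, a filter on level, a fit without controls, the spike-in level (with and without the block) and the 3' to 5' ratio as covariates, thresholds of 0.01 and 0.1, the mean of a gene's probe sets or all of them, and fits without each array or pair.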

Additional observations from a re-analysis of the deposited data

Results flagged for a closer look

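In 2 of the 58 sets of 5 arrays checked, 1 array stood apart from the other 4 by more than Dixon's critical value of 0.71, and chance alone sets apart about 1 in 20. RPL37 in SSEA1- replicate 4 read 5.18 with the next array at 5.70, a gap that is 0.734 of the whole range of that fraction. RPL29 in SSEA1- replicate 3 read 9.80 with the next array at 9.83, a gap that is 0.785 of a narrow range.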

How the results depend on the processing

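The count of 0 ribosomal protein genes called held in each direction under every alternative but 2: with limma's trend and robust settings 1 gene, RPS4X, was called higher, and with all probe sets counted 1 was called lower, the other probe set of RPS27A. Without any array or pair, 0 were called, 35 to 46 of 59 were lower in sign, the median ran from -0.05 to -0.01 and the smallest adjusted p in limma was 0.159. The median moved from -0.036 to -0.129 with the spike-in covariate and the replicate block together; the cause was not tested. The replicate block alone, as a paired fit, changed 0 calls of the 59 genes. It raised the assembly factors that fell from 12 to 23, while the spike-in covariate gave 0 with or without the block, and leaving out arrays or pairs gave 0 to 20. Of the named differences 0 changed sign with a call, and up to 5 turned sign without one, the most with the spike-in covariate and block. The dim probe sets of RPS15A, RPL30 and RPL26 limit what can be said of those genes.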
